A study of Homo sapiens with 18 samples.

Results

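The mevalonate and squalene enzymes are 9 genes, taken here in pathway order from HMG-CoA synthase to lanosterol synthase: HMGCS1, MVK, PMVK, MVD, IDI1, FDPS, FDFT1, SQLE and LSS. They were chosen by symbol, all 9 were found by Ensembl identifier among the 57905 genes of the 18 count files, and all 9 passed the filter on low counts in every comparison. RNA sequencing was done on 2 human multiple myeloma cell lines, KMS12-BM and JJN3, with 3 libraries in each of 6 groups. In KMS12-BM the groups were amiloride at 0.1 mM for 24 h, TG003 at 0.4 mM for 24 h, and cells labelled untreated (DMSO). In JJN3 they were amiloride at 0.4 mM for 24 h, TG003 at 0.4 mM for 24 h, and cells labelled untreated (DMSO), and no duration is given for DMSO in either line. Amiloride, a potassium-sparing diuretic, acts on sodium transport at the cell membrane, and TG003 inhibits CDC-like kinases, which phosphorylate splicing factors. The medium held 10% fetal bovine serum for JJN3 and 20% for the line that the growth protocol writes as KMS12M, so the lines differed in serum, a source of lipoprotein cholesterol, as well as in amiloride dose. Separate cultures are not stated for the libraries of a group, so p-values measure only the spread between these libraries, which may be technical.

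The pathway builds isoprenoids and sterols from acetyl-CoA. HMGCS1 makes HMG-CoA, from which mevalonate is formed. MVK and PMVK phosphorylate mevalonate in turn, and MVD decarboxylates the product to isopentenyl diphosphate. IDI1 interconverts isopentenyl and dimethylallyl diphosphate, and FDPS joins such units to farnesyl diphosphate, the branch point towards protein prenylation, dolichol and ubiquinone and the target of the nitrogen-containing bisphosphonates given in myeloma bone disease. FDFT1 commits farnesyl diphosphate to squalene, SQLE oxidises squalene, and LSS closes the ring to lanosterol. Transcription of these genes is classically under SREBP2, the product of SREBF2, which SCAP carries to the Golgi and INSIG proteins retain when membrane sterol is high.

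RefSeq (GRCh38.p14) gave promoter windows for 7 of the 9 genes, 10 windows in all, of which the 250 bases before the annotated start were searched on both strands. Those of 5 genes are printed so that a gene lowered by both drugs (HMGCS1), 3 that were lower with amiloride than with TG003 in JJN3 (MVK, MVD, LSS) and the 1 that was higher in JJN3 (PMVK) can be read side by side. Capitals mark CCAAT, the box bound by NF-Y, and TCACNCCA, a form of the sterol regulatory element, on either strand, so that ATTGG is CCAAT read from the other strand. The windows are MVK at chr12:109573544-109573793 (plus strand), HMGCS1 at chr5:43313413-43313662 (minus strand), MVD at chr16:88663092-88663341 (minus strand), LSS at chr21:46228775-46229024 (minus strand) and PMVK at chr1:154936720-154936969 (minus strand), each written 5′ to 3′ along its gene.
MVK: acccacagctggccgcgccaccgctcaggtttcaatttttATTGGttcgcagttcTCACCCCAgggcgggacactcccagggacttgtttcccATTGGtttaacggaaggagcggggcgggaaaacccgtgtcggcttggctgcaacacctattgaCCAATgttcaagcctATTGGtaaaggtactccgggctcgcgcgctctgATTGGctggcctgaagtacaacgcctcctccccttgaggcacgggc
HMGCS1: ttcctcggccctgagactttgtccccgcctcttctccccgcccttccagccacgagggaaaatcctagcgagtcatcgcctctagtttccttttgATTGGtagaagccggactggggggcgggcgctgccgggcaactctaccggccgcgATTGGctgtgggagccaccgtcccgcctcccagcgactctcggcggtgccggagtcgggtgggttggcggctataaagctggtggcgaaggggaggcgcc
MVD: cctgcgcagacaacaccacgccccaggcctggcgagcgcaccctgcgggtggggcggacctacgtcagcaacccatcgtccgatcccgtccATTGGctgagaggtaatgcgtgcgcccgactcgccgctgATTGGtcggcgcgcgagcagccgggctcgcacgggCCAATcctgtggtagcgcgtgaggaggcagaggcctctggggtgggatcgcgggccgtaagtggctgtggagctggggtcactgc
LSS: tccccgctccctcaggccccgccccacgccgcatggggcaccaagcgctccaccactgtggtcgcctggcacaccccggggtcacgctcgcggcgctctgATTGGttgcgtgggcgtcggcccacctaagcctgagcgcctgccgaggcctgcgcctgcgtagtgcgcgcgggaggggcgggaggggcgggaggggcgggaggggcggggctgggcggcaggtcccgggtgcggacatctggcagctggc
PMVK: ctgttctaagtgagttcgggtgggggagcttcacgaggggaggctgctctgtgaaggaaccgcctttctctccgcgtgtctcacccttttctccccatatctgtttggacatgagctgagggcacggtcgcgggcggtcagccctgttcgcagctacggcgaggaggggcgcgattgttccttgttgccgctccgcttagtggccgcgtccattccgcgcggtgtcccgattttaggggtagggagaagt

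CCAAT was present in 7 of the 10 windows, against 32% of all 35116 windows of the same length, and PMVK was the gene with no window that held it. MVK held 5 copies, MVD 3, HMGCS1 2 and LSS 1 in the windows shown. In the windows not shown, FDPS held 3, IDI1 held 0, 2 and 3, and the other window of HMGCS1 held 0. TCACNCCA was found in 1 of the 10 windows, that of MVK, against 3.2% of all windows. GGGCGG, the core of the GC box, was in 10 of the 10 windows, against 42.6% of all windows, and is not capitalised. In the windows shown no motif overlaps another. These are matches of letters, not sites, and no match in 250 bases says nothing about the factor.

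In GRCh37 coordinates, HMGCS1 (ENSG00000112972) lies at chr5:43287572-43313614, PMVK (ENSG00000163344) at chr1:154897216-154909195, MVD (ENSG00000167508) at chr16:88718343-88729569, IDI1 (ENSG00000067064) at chr10:1085092-1095059 and LSS (ENSG00000160285) at chr21:47608055-47648738, all on the minus strand. MVK (ENSG00000110921) lies at chr12:110011060-110035930, FDPS (ENSG00000160752) at chr1:155278539-155290457, FDFT1 (ENSG00000079459) at chr8:11653082-11696904 and SQLE (ENSG00000104549) at chr8:126010739-126034525, all on the plus strand. The counts are per gene, so the values do not separate transcripts, coding exons or UTRs.

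Reads assigned to genes ranged from 23707695 to 50570234 per library. CCND1, a translocation partner known from KMS12-BM, averaged 951 ± 178 CPM in DMSO-treated KMS12-BM and 1.3 ± 0.252 CPM in DMSO-treated JJN3, and MAF, known from JJN3, averaged 0.3703 ± 0.196 CPM in KMS12-BM and 876 ± 149.9 CPM in JJN3 (SD, n = 3 each), where CPM is the read count scaled to library depth with TMM factors. The 10 plasma cell markers summed to 2918 to 3213 CPM with amiloride, 952 to 1026 CPM with TG003 and 2212 to 2308 CPM with DMSO in KMS12-BM, with 9, 8 and 9 of 10 at a mean of 1 CPM or more. In JJN3 they summed to 4241 to 4921, 2203 to 2437 and 4453 to 4802 CPM with amiloride, TG003 and DMSO, with the same numbers present. By gene, 4 of the 10 were called lower and 2 higher with amiloride in KMS12-BM (35.2% and 33.5% over all genes), although the sum rose. With TG003 there 9 were called lower and 0 higher (31.7% and 26.9%). In JJN3, of 9 tested, 2 were lower and 0 higher with amiloride (23.9% and 19.7%), and 9 and 0 with TG003 (32.1% and 26.2%). Markers of T and NK cells, myeloid cells, stroma and hepatocytes summed to at most 2.75 CPM in any library. Of 4 B cell markers 2 reached 1 CPM in KMS12-BM, where the list summed to 65.7 to 74.4 CPM with amiloride, 39.8 to 42.2 CPM with TG003 and 52.9 to 59 CPM with DMSO, and in JJN3 it summed to at most 0.586 CPM. The erythroid list, in effect HBB, summed to 41.2 to 64.2 CPM with amiloride, 21.3 to 28.8 CPM with TG003 and 50.7 to 65.8 CPM with DMSO in JJN3, and to at most 0.0767 CPM in KMS12-BM; HBB was lower with TG003 (-1.26 ± 0.18, adjusted p = 0.000198) and not called with amiloride. The part of these lists in the results was not tested. The 6 TG003 libraries stood apart in read assignment, with 0.106 to 0.13% of reads in processed pseudogenes, against 4.49 to 5.62% in the other 12 libraries. These shifts run with every TG003 result below. Beyond refits with pseudogene reads summed into their parents or with coding genes alone, their part in those results was not tested. Mitochondrial reads ran with amiloride: they were 0.265 to 0.448% of reads with amiloride, against 3.86 to 4.25% with DMSO in KMS12-BM, and 0.709 to 1.04% with amiloride, against 2.06 to 2.61% with DMSO in JJN3. With mitochondrial genes and the most abundant genes removed before scaling, the calls of the 9 genes in both amiloride comparisons with DMSO were as reported below; in bulk RNA, fewer cells of a type and less RNA per cell cannot be told apart.

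Together the 9 genes took 0.0461 ± 0.00259% of reads with amiloride, 0.0777 ± 0.00494% with TG003 and 0.109 ± 0.0148% with DMSO in KMS12-BM, and 0.127 ± 0.00363%, 0.108 ± 0.000819% and 0.192 ± 0.00757% with amiloride, TG003 and DMSO in JJN3 (SD, n = 3 each). Levels between genes were compared per kilobase of the canonical transcript. In untreated JJN3 the levels in CPM per kb were 223 ± 12.2 for FDPS, 184 ± 9.55 for PMVK, 138 ± 3.57 for FDFT1, 116 ± 9.94 for SQLE, 96.8 ± 10.6 for HMGCS1, 49.8 ± 3.52 for IDI1, 40.1 ± 2.44 for LSS, 16.3 ± 1.62 for MVD and 8.09 ± 0.714 for MVK. Neighbours in that order did not overlap over the 3 libraries, apart from SQLE and HMGCS1. In untreated KMS12-BM the levels in CPM per kb were 104 ± 8.91 for FDPS, 89.6 ± 18.3 for SQLE, 82.2 ± 4.48 for FDFT1, 62.4 ± 8.71 for PMVK, 58.4 ± 16.4 for HMGCS1, 24.7 ± 4.48 for IDI1, 10.5 ± 0.98 for LSS, 8.102 ± 0.994 for MVD and 7.69 ± 0.179 for MVK. There FDPS and SQLE, SQLE and FDFT1, PMVK and HMGCS1, and MVD and MVK overlapped. The order at the top depends on the length used: per kilobase of all annotated exons joined, PMVK was at 184, FDPS at 85.02 and SQLE at 79.98 CPM per kb in JJN3, and PMVK at 62.4, SQLE at 61.6, HMGCS1 at 47.2 and FDPS at 39.6 CPM per kb in KMS12-BM. MVD and MVK were the lowest pair in both lines by either length, and the fewest reads behind a value were 45, for MVD in KMS12-BM amiloride replicate 3.

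**Figure D1:**
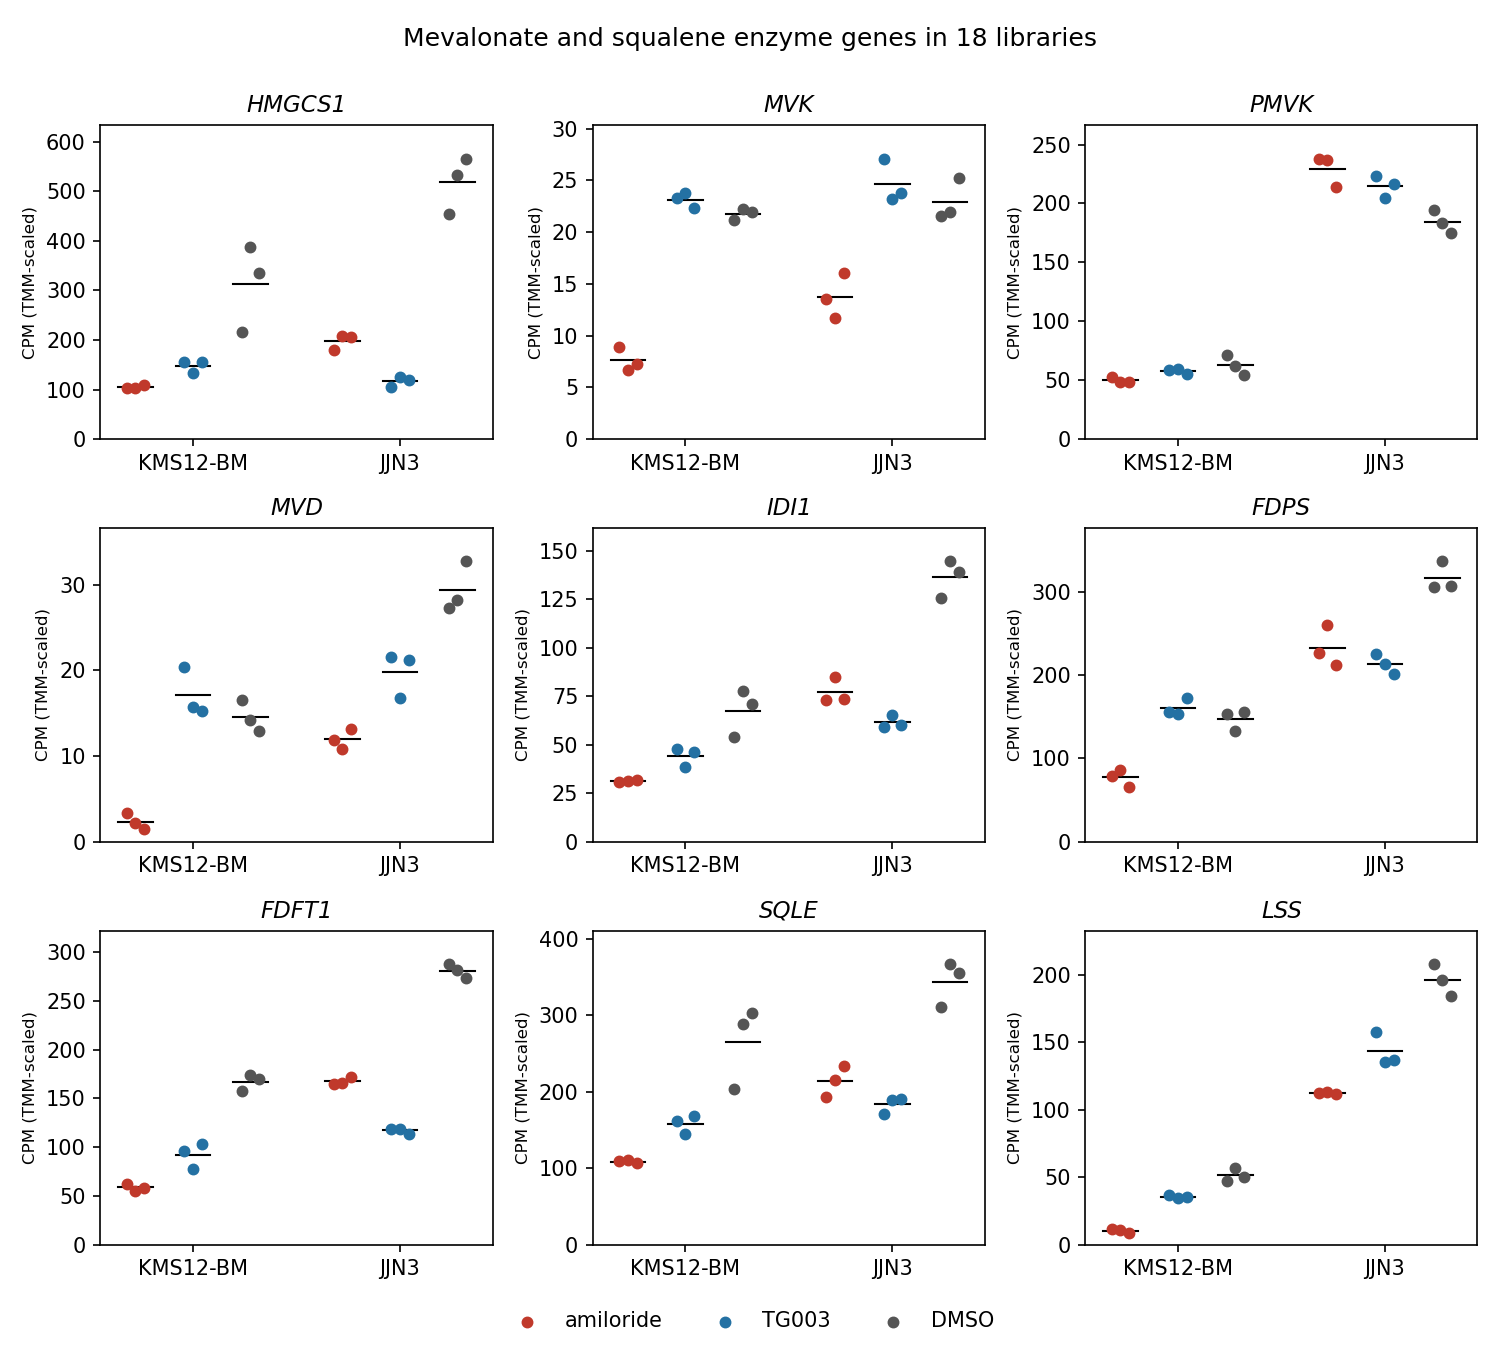
Level of each of the 9 genes in CPM (TMM-scaled, linear axis from 0) in the 18 libraries, by line and treatment, with 1 point per library and a bar at the mean of 3. In KMS12-BM the amiloride points lie below the DMSO points in all 9 panels, and PMVK in JJN3 is the panel where the points of both drugs lie above those of DMSO.

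Amiloride at 0.1 mM was compared with DMSO in KMS12-BM. All 9 genes were lower, 7 of them by at least 2-fold, and MVD, the decarboxylase, and LSS, the cyclase, had the lowest log2 fold changes before any GC trend was removed. Of those 7 IDI1 changed least, and 16.1% of all genes had a lower log2 fold change than IDI1. The median log2 fold change of the 9 was -1.51, beside -0.02 over all genes. A gene was called at an adjusted p below 0.05 (edgeR's quasi-likelihood test), and of the 15765 genes tested 68.7% were called, 35.2% lower and 33.5% higher, so a single call is common in this comparison.

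At the head of the pathway, HMGCS1 was at 102, 103 and 109 CPM in the amiloride libraries, against 216, 387 and 334 CPM in the DMSO libraries. The groups were well apart, although DMSO replicate 1 was low among its own, and the log2 fold change was -1.58 ± 0.18 (SE, adjusted p = 1.83e-05). MVK, the mevalonate kinase, was at 8.87, 6.69 and 7.29 CPM with amiloride, against 21.2, 22.2 and 21.9 CPM with DMSO (-1.51 ± 0.11, adjusted p = 3.7e-07), with little spread within the DMSO group. PMVK, the next kinase, was at 52.7, 48.9 and 48.7 CPM with amiloride, against 71.7, 61.7 and 54.3 CPM with DMSO (-0.32 ± 0.10, adjusted p = 0.0148). This was the smallest change of the 9, and the lowest DMSO library lay close to the amiloride libraries. MVD was at 3.38, 2.18 and 1.51 CPM with amiloride, against 16.5, 14.2 and 12.99 CPM with DMSO, a 6.09-fold fall (-2.61 ± 0.24, adjusted p = 3.12e-06) with no overlap.

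Among the isoprenoid enzymes, the isomerase IDI1 averaged 31.3 ± 0.473 CPM with amiloride and 67.6 ± 12.3 CPM with DMSO (-1.11 ± 0.13). FDPS averaged 77.2 ± 10.6 CPM with amiloride and 147 ± 12.6 CPM with DMSO (-0.93 ± 0.11). In the squalene branch, FDFT1 averaged 58.8 ± 3.42 CPM with amiloride and 167 ± 9.11 CPM with DMSO (-1.51 ± 0.10), and the epoxidase SQLE 109 ± 2.16 and 265 ± 54.2 CPM (-1.29 ± 0.13). LSS was at 11.5, 10.8 and 8.57 CPM with amiloride, against 47.5, 56.8 and 50.03 CPM with DMSO, a 4.98-fold fall (-2.32 ± 0.12, adjusted p = 4.84e-08). The libraries of the 2 groups did not overlap for any of the 9 genes, but the share of all genes without overlap was not counted. In this comparison fold changes also ran with GC content: the median log2 fold change was 0.37 in the 2948 genes lowest in GC (30.7 to 41.8%), which include HMGCS1 and IDI1, and -0.57 in the 2942 highest (57.4 to 76%), which include MVK, PMVK, MVD and LSS, and the part of GC in their values was tested only by removing its trend. With the trend over all genes removed, MVD was at -1.84, LSS at -1.85 and HMGCS1 at -1.88, so that MVD and LSS no longer stood below HMGCS1. The call of PMVK was lost without DMSO replicate 1 (-0.21, adjusted p = 0.0588), and PMVK turned to 0.14 (adjusted p = 0.13) with a GC trend of coding genes removed, while the other 8 stayed lower.

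Amiloride at 0.4 mM was compared with DMSO in JJN3. Here 8 of the 9 genes were lower, HMGCS1 and MVD by at least 2-fold, and PMVK was higher. The median was -0.75, beside -0.03 over all 15704 genes tested, of which 43.6% were called, 23.9% lower and 19.7% higher. A lower log2 fold change than that of MVD was found in 2.21% of all genes. HMGCS1 was at 179.9, 207 and 206 CPM with amiloride, against 455, 533 and 566 CPM with DMSO (-1.40 ± 0.09, adjusted p = 7.87e-07). MVK was at 13.5, 11.7 and 16.01 CPM with amiloride, against 21.6, 21.96 and 25.3 CPM with DMSO (-0.74 ± 0.12, adjusted p = 0.000391), a smaller step with the groups still apart. PMVK was at 238, 237 and 214 CPM with amiloride, against 194, 183 and 175 CPM with DMSO (0.31 ± 0.07, adjusted p = 0.0042). All 3 amiloride libraries were thus above all 3 DMSO libraries for PMVK, between 2 enzymes that fell. MVD was at 11.9, 10.8 and 13.1 CPM with amiloride, against 27.3, 28.2 and 32.7 CPM with DMSO (-1.30 ± 0.12, adjusted p = 7.77e-06).

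The later enzymes fell by less than MVD: IDI1 changed by -0.82 ± 0.08, FDPS by -0.45 ± 0.08, FDFT1 by -0.75 ± 0.06, SQLE by -0.69 ± 0.09 and LSS by -0.81 ± 0.08 on the log2 scale. FDPS averaged 233 ± 24.8 CPM with amiloride and 316 ± 17.3 CPM with DMSO, FDFT1 168 ± 3.83 and 281 ± 7.23 CPM, and LSS 112 ± 0.786 and 196 ± 11.9 CPM. The groups did not overlap for any of the 9 genes, but the share of all genes without overlap was not counted. None of these 9 calls was lost under the alternatives tried or with any 1 library left out.

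TG003 at 0.4 mM was compared with DMSO in KMS12-BM, where the pathway was split. HMGCS1, IDI1, FDFT1, SQLE and LSS were lower, of which HMGCS1 alone reached 2-fold, and MVK, PMVK, MVD and FDPS were not called. A lower log2 fold change than that of HMGCS1 was found in 13.2% of all genes. Of all genes 58.6% were called, 31.7% lower and 26.9% higher, and the median of the 9 was -0.53, beside -0.03 over all genes. HMGCS1 was at 156, 133 and 156 CPM with TG003, against 216, 387 and 334 CPM with DMSO (-1.07 ± 0.17, adjusted p = 0.00042), with every TG003 library below every DMSO library. IDI1 averaged 44.4 ± 4.998 CPM with TG003 and 67.6 ± 12.3 CPM with DMSO (-0.60 ± 0.13, adjusted p = 0.00164), FDFT1 92.3 ± 13.2 and 167 ± 9.11 CPM (-0.85 ± 0.10, adjusted p = 2.88e-05). SQLE averaged 158 ± 11.98 CPM with TG003 and 265 ± 54.2 CPM with DMSO (-0.74 ± 0.13, adjusted p = 0.00046). These 3 were apart from DMSO in every library. LSS was at 37, 34.4 and 35.1 CPM with TG003, against 47.5, 56.8 and 50.03 CPM with DMSO (-0.53 ± 0.11, adjusted p = 0.00151).

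MVD, which fell with amiloride in this line, was at 20.4, 15.8 and 15.3 CPM with TG003, against 16.5, 14.2 and 12.99 CPM with DMSO. The groups overlapped, and the difference of 0.24 had a 95% interval of -0.22 to 0.70. MVK was at 23.3, 23.7 and 22.4 CPM with TG003, against 21.2, 22.2 and 21.9 CPM with DMSO (0.09, interval -0.14 to 0.32), slightly above in every library but not called. The intervals were -0.33 to 0.12 for PMVK and -0.10 to 0.36 for FDPS, both with overlapping groups. Removing a GC trend fitted over all genes moved the median of all genes to 0.38 and ended the calls of FDFT1 (-0.20, adjusted p = 0.0764), SQLE (-0.09, adjusted p = 0.516) and LSS (-0.22, adjusted p = 0.054), while MVK (0.36), MVD (0.39) and FDPS (0.54) were called higher. A trend fitted on coding genes and centred kept the 5 lower calls, with the median at -0.03, and added MVD as higher (0.37, adjusted p = 0.0147).

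TG003 at 0.4 mM was compared with DMSO in JJN3, where 7 genes were lower, PMVK was higher and MVK was not called. Of all genes 58.3% were called, 32.1% lower and 26.2% higher, and the median of the 9 was -0.54, beside -0.04 over all genes. HMGCS1 was at 106, 126 and 119.5 CPM with TG003, against 455, 533 and 566 CPM with DMSO, a 4.33-fold fall (-2.12 ± 0.10, adjusted p = 3.62e-10). FDFT1 was at 119, 119 and 114 CPM with TG003, against 288, 282 and 273 CPM with DMSO (-1.23 ± 0.06, adjusted p = 1.56e-09). IDI1 was at 59.3, 65.5 and 60.4 CPM with TG003, against 126, 145 and 139 CPM with DMSO (-1.11 ± 0.08, adjusted p = 4.85e-08). For these 3 enzymes the highest TG003 library was far below the lowest DMSO library. SQLE changed by -0.88 ± 0.09, FDPS by -0.54 ± 0.08, MVD by -0.54 ± 0.12 and LSS by -0.42 ± 0.08, with groups that did not overlap. PMVK was at 223, 205 and 217 CPM with TG003, against 194, 183 and 175 CPM with DMSO (0.25 ± 0.07, adjusted p = 0.00949). MVK was at 27.1, 23.2 and 23.8 CPM with TG003, against 21.6, 21.96 and 25.3 CPM with DMSO (0.14, interval -0.12 to 0.39), with overlapping groups. With the GC trend over all genes removed, which moved the median of all genes to 0.41, FDPS (-0.10, adjusted p = 0.269), SQLE (-0.17, adjusted p = 0.0728) and LSS (-0.10, adjusted p = 0.213) lost their calls, FDFT1 moved to -0.52 and MVK was called higher (0.41, adjusted p = 0.00184); the centred trend of coding genes changed none of the 9.

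**Figure D2:**
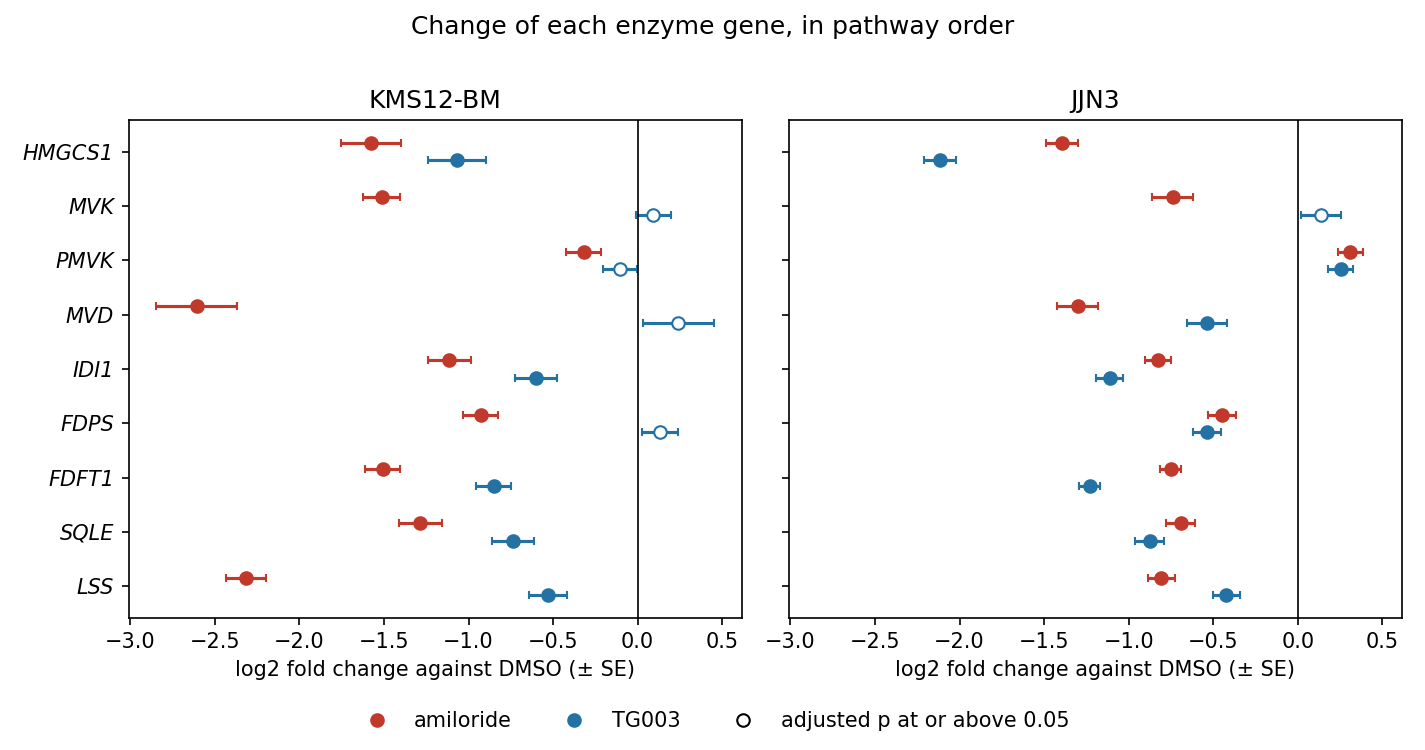
Log2 fold change of each gene against DMSO (x axis, bars are SE, 3 libraries per group), for KMS12-BM and JJN3, genes in pathway order down the y axis, with amiloride and TG003 as separate symbols and open symbols for genes not called. Amiloride takes all 9 genes below 0 in KMS12-BM, with MVD at -2.61 and LSS at -2.32, while TG003 leaves MVK, PMVK, MVD and FDPS uncalled there, and PMVK lies above 0 for both drugs in JJN3.

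Amiloride and TG003 were compared in JJN3, at an equal dose of 0.4 mM and an equal time. Read assignment differed with the drug: processed pseudogenes took 4.49 to 4.64% of reads with amiloride and 0.113 to 0.13% with TG003. The part of this shift in the differences was tested only by refits with pseudogene reads summed into their parents or with coding genes alone. These called 8648 and 7251 of all genes, against 9772 in the main fit. HMGCS1, IDI1 and FDFT1 were higher with amiloride, MVK, MVD and LSS were lower, and PMVK, FDPS and SQLE were not called. In this comparison 62.2% of genes were called, 33.3% higher and 28.9% lower. HMGCS1 was at 179.9, 207 and 206 CPM with amiloride, against 106, 126 and 119.5 CPM with TG003 (0.72 ± 0.09, adjusted p = 1.84e-05). FDFT1 was at 165, 166 and 172 CPM with amiloride, against 119, 119 and 114 CPM with TG003 (0.48 ± 0.06, adjusted p = 2.14e-05), and IDI1 differed by 0.29 ± 0.08 (adjusted p = 0.00547). In the other direction, MVK was at 13.5, 11.7 and 16.01 CPM with amiloride, against 27.1, 23.2 and 23.8 CPM with TG003 (-0.88 ± 0.12, adjusted p = 3.33e-05), so that no library of either drug reached the other. MVD differed by -0.76 ± 0.12 (adjusted p = 0.000109) and LSS by -0.39 ± 0.08 (adjusted p = 0.000798). The 95% intervals of the differences not called were -0.10 to 0.22 for PMVK, -0.09 to 0.27 for FDPS and -0.003 to 0.37 for SQLE (adjusted p = 0.0805). SQLE was called higher with no filter on low counts (0.22, adjusted p = 0.0373) and without JJN3 amiloride replicate 1 (0.25, adjusted p = 0.0307), and lower with the GC trend over all genes removed (-0.46, adjusted p = 0.000181). With the GC trend over all genes removed, the median of all genes moved to -0.36, IDI1 turned to -0.003 (adjusted p = 0.966) and FDFT1 to -0.17 (adjusted p = 0.0227); with the centred trend of coding genes the 6 calls held. In KMS12-BM the drugs were given at different doses and were not tested against each other.

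Between the lines under DMSO, KMS12-BM had lower levels than JJN3 of 8 of the 9 enzymes, 5 of them by at least 2-fold. The median was -1.01, beside -0.04 over all 17772 genes tested, of which 76.0% were called, 39.3% lower and 36.8% higher. Of the 5 at 2-fold or more IDI1 differed least, and 24% of all genes had a lower log2 fold change than IDI1. LSS was at 47.5, 56.8 and 50.03 CPM in KMS12-BM, against 208, 196 and 184 CPM in JJN3 (-1.93 ± 0.09, adjusted p = 1.21e-13). PMVK was at 71.7, 61.7 and 54.3 CPM in KMS12-BM, against 194, 183 and 175 CPM in JJN3 (-1.56 ± 0.09, adjusted p = 1.17e-12), also far apart. FDPS differed by -1.10 ± 0.10, MVD by -1.01 ± 0.17, IDI1 by -1.01 ± 0.11, FDFT1 by -0.75 ± 0.08, HMGCS1 by -0.73 ± 0.15 and SQLE by -0.38 ± 0.11, all lower in KMS12-BM. MVK was at 21.2, 22.2 and 21.9 CPM in KMS12-BM, against 21.6, 21.96 and 25.3 CPM in JJN3, and was not called (-0.07, interval -0.31 to 0.17). The call of SQLE was lost with the GC trend over all genes removed (-0.06, adjusted p = 0.611), which moved the median of all genes to 0.17, and line and serum cannot be told apart.

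Whether the lines responded differently was tested as an interaction, the log2 fold change in KMS12-BM minus that in JJN3. For amiloride 7 of the 9 genes were called, all 7 with a lower value in KMS12-BM. Of all genes 43.2% were called, 21.6% lower and 21.6% higher. These differences also ran with GC content. In the 3268 coding genes lowest in GC, which include HMGCS1 and IDI1, the median was 0.314, with 11.1% lower and 41.3% higher. In the 3261 highest, which include MVK, PMVK, MVD and LSS, it was -0.415, with 38.1% lower and 9.94% higher. LSS differed most, with a 4.98-fold fall in KMS12-BM and a 1.75-fold fall in JJN3 (difference -1.52 ± 0.13, adjusted p = 3e-08). MVD differed by -1.31 ± 0.27, MVK by -0.78 ± 0.17 and FDFT1 by -0.76 ± 0.12, with adjusted p of 0.000503, 0.000673 and 2.66e-05. PMVK, called lower in KMS12-BM and higher in JJN3, differed by -0.64 ± 0.12, SQLE by -0.60 ± 0.16 and FDPS by -0.49 ± 0.14, with adjusted p of 0.000229, 0.00495 and 0.00681. HMGCS1 (-0.19, interval -0.64 to 0.26) and IDI1 (-0.30, interval -0.62 to 0.03) were not called, but were without KMS12-BM DMSO replicate 1 (-0.40, adjusted p = 0.028, and -0.44, adjusted p = 0.0113). With the GC trend over all genes removed, PMVK (-0.25, adjusted p = 0.076) and FDPS (-0.24, adjusted p = 0.156) were no longer called and IDI1 was (-0.58, adjusted p = 0.00103). With the centred trend of coding genes FDPS was not called (-0.29, adjusted p = 0.108), while HMGCS1 (-0.47, adjusted p = 0.0391) and IDI1 (-0.61, adjusted p = 0.000613) were; line, serum and the amiloride dose (0.1 mM for KMS12-BM, 0.4 mM for JJN3) cannot be told apart.

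For TG003, given at 0.4 mM to both lines, 5 genes were called and all 5 had the higher value in KMS12-BM; 13.9% of genes were called, 7.13% higher and 6.80% lower. HMGCS1 fell 2.1-fold in KMS12-BM and 4.33-fold in JJN3 (difference 1.07 ± 0.21, adjusted p = 0.00284). FDPS was at 156, 154 and 172 CPM with TG003, against 154, 133 and 155 CPM with DMSO in KMS12-BM, and at 225, 213 and 201 CPM with TG003, against 306, 336 and 307 CPM with DMSO in JJN3 (difference 0.69 ± 0.14, adjusted p = 0.00205). Its groups overlapped in KMS12-BM and were apart in JJN3. MVD (0.80 ± 0.25, adjusted p = 0.0339), IDI1 (0.54 ± 0.16, adjusted p = 0.0244) and FDFT1 (0.40 ± 0.12, adjusted p = 0.0256) were nearer the threshold. FDFT1 lost its call with pseudogenes summed (0.34, adjusted p = 0.0623) and with the GC trend over all genes removed (0.32, adjusted p = 0.0578). With only the compared groups in the fit, FDFT1 (0.36, adjusted p = 0.0589) and IDI1 (0.49, adjusted p = 0.0518) were not called. MVK (-0.02, interval -0.36 to 0.32), PMVK (-0.33, -0.58 to -0.08, adjusted p = 0.0765), SQLE (0.16, -0.18 to 0.50) and LSS (-0.08, -0.35 to 0.19) were not called. With the replicate block PMVK was called, with a lower value in KMS12-BM (-0.33, adjusted p = 0.0297). With 1 library left out, 2 to 5 genes were called higher: 2 without JJN3 DMSO replicate 2 or KMS12-BM TG003 replicate 1, and 3 without KMS12-BM DMSO replicate 1, JJN3 DMSO replicate 3, KMS12-BM TG003 replicate 3 or JJN3 TG003 replicate 3.

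**Figure D3:**
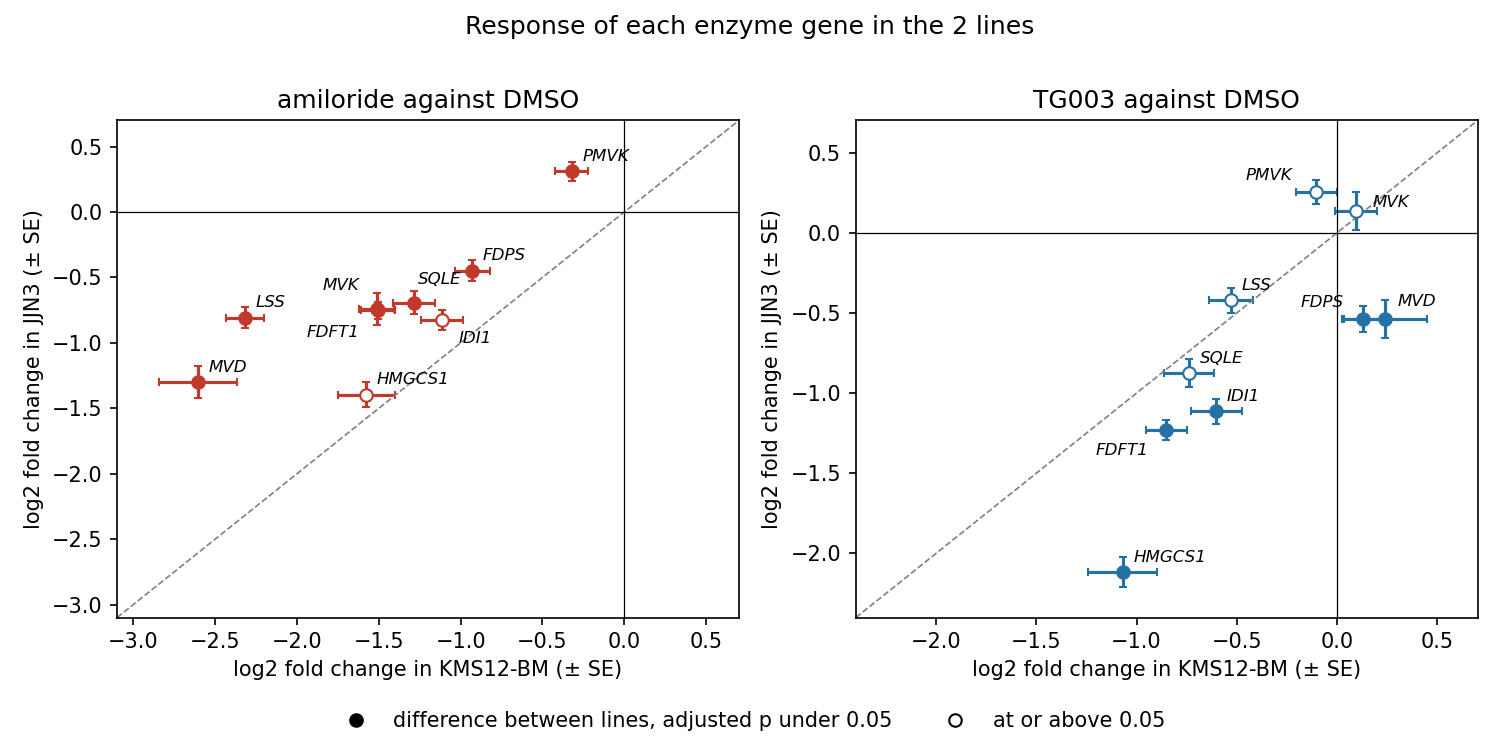
Log2 fold change against DMSO in KMS12-BM (x axis) and in JJN3 (y axis), bars are SE, for amiloride and for TG003, with a dashed line of equal change and filled symbols for genes whose difference between the lines was called. Under amiloride the 9 genes lie above the dashed line, LSS farthest from it (difference -1.52), and under TG003 HMGCS1 lies farthest below it (difference 1.07).

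The genes around the 9 enzymes were counted from lists by role, to be read against the shares of all genes called given above. Counts under TG003 with the GC trend over all genes removed have another background. In that setting 8577 of all genes were higher and 2977 lower in KMS12-BM, and 9026 were higher and 2732 lower in JJN3. ACAT2, which condenses acetyl-CoA, changed by -1.71 ± 0.13 with amiloride in KMS12-BM and by -0.57 ± 0.10 with amiloride and -0.54 ± 0.10 with TG003 in JJN3, and was not called with TG003 in KMS12-BM (0.23 ± 0.12, adjusted p = 0.129). With the GC trend over all genes removed, ACAT2 was called higher with TG003 in KMS12-BM and was not called with TG003 in JJN3, and it was called higher with TG003 in KMS12-BM also with upper-quartile factors and with the replicate block. Downstream, of 9 enzymes from lanosterol to cholesterol 7 were lower and 0 higher with amiloride in KMS12-BM, with DHCR7, which catalyses a late step, at -2.26 ± 0.13 and the isomerase EBP at -1.28 ± 0.08. With amiloride in JJN3 6 were lower and 0 higher, with DHCR7 at -1.15 ± 0.08 and the C4-demethylation enzyme MSMO1 at -1.11 ± 0.09; without JJN3 DMSO replicate 1 the 6 became 3. With TG003 5 were lower and 1 higher in KMS12-BM, with LBR at -0.60 ± 0.08, and 5 lower and 0 higher in JJN3, with MSMO1 at -1.63 ± 0.09. With the GC trend over all genes removed, the counts under TG003 in KMS12-BM became 3 lower and 3 higher, and those in JJN3 3 lower and 3 higher.

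Of 11 tested genes of SREBP regulation and sterol handling, 9 were lower and 2 higher with amiloride in KMS12-BM. SREBF2, which encodes SREBP2, changed by -2.04 ± 0.13 and TMEM97, the sigma-2 receptor gene, by -1.73 ± 0.08. In JJN3 7 were lower and 2 higher with amiloride, with the sterol carrier gene STARD4 at -0.98 ± 0.09 and the lowest value of the list at -2.17. With TG003 5 were lower and 1 higher in KMS12-BM, where INSIG1 was at -1.24 ± 0.15 and SCAP at 0.50 ± 0.07, and 7 lower and 3 higher in JJN3, where INSIG1 was at -2.34 ± 0.20. With any 1 library left out, 6 to 7 were lower with amiloride in KMS12-BM, and 6 without DMSO replicate 2 or amiloride replicate 2. SREBF2, named here after its values were seen, was at -0.37 ± 0.07 with amiloride in JJN3 and differed between the lines (interaction -1.68 ± 0.14, adjusted p = 1.89e-08). The list was divided in that interaction, with 5 of the 11 genes lower, 3 higher and a median of -0.10. Over all genes 21.6% were lower and 21.6% higher. With the GC trend over all genes removed, the counts under TG003 became 3 lower and 6 higher in KMS12-BM and 3 lower and 5 higher in JJN3, and 1 gene was higher with amiloride in KMS12-BM with any of the 3 GC corrections.

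The 17 genes of the prenyl branches, which use the farnesyl diphosphate that FDPS makes, were divided. In KMS12-BM 6 were lower and 8 higher with amiloride and 6 lower and 8 higher with TG003, and in JJN3 2 were lower and 7 higher with amiloride and 3 lower and 10 higher with TG003. Over all genes in KMS12-BM, 35.2% were lower and 33.5% higher with amiloride, and 31.7% lower and 26.9% higher with TG003. In JJN3 23.9% were lower and 19.7% higher with amiloride, and 32.1% lower and 26.2% higher with TG003. SRD5A3, needed for dolichol, changed by -2.90 ± 0.18 with amiloride in KMS12-BM and by -1.28 ± 0.10 in JJN3, and FNTA, the shared subunit of farnesyl and geranylgeranyl transferase, by 1.41 ± 0.11 with amiloride in KMS12-BM. RABGGTA, a subunit of the Rab prenyltransferase, changed by -1.39 ± 0.12 with amiloride and 1.09 ± 0.11 with TG003 in KMS12-BM. Of 5 tested genes of fatty acid synthesis, 5 and 3 were lower with amiloride and TG003 in KMS12-BM, and 3 and 4 in JJN3, where ELOVL6 was higher with amiloride (0.60 ± 0.10). Without JJN3 TG003 replicate 3, 1 prenyl gene was lower with TG003 in JJN3, and without JJN3 amiloride replicate 2, 4 were lower with amiloride there; with the GC trend over all genes removed, 0 fatty acid genes, SCD included, were lower with TG003 in KMS12-BM. With that trend removed the prenyl counts under TG003 became 3 lower and 11 higher in KMS12-BM and 0 lower and 15 higher in JJN3. Of the calls over all genes in that setting, 74.2% and 76.8% were higher. With the replicate block 1 fatty acid gene was higher with TG003 in KMS12-BM. The desaturase gene SCD was lower in all 4 comparisons, by -1.87 ± 0.09 with amiloride and -0.84 ± 0.09 with TG003 in KMS12-BM and by -1.06 ± 0.09 and -1.03 ± 0.09 in JJN3.

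Of 6 tested genes of sterol efflux and the LXR receptors, 3 were higher and 1 lower with amiloride in KMS12-BM, and 2 higher and 1 lower in JJN3, where 1 was higher without DMSO replicate 2 and 2 were lower without amiloride replicate 3. With TG003 5 were higher in KMS12-BM, 3 without KMS12-BM DMSO replicate 2 or 3 or TG003 replicate 2, and 2 in JJN3, where 5 were higher with the GC trend over all genes removed; with the replicate block 2 were lower with amiloride in KMS12-BM. NPC1L1, a sterol importer best known from the intestine, averaged 21.2 ± 4.63 CPM with amiloride, 0.841 ± 0.209 CPM with TG003 and 0.159 ± 0.0706 CPM with DMSO in KMS12-BM, and was too low to be tested in JJN3. NR1H3, which encodes LXR alpha, was higher with amiloride (1.59 ± 0.13) and TG003 (2.13 ± 0.13) in KMS12-BM and in JJN3 (0.50 ± 0.14 and 1.36 ± 0.14).

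**Figure D4:**
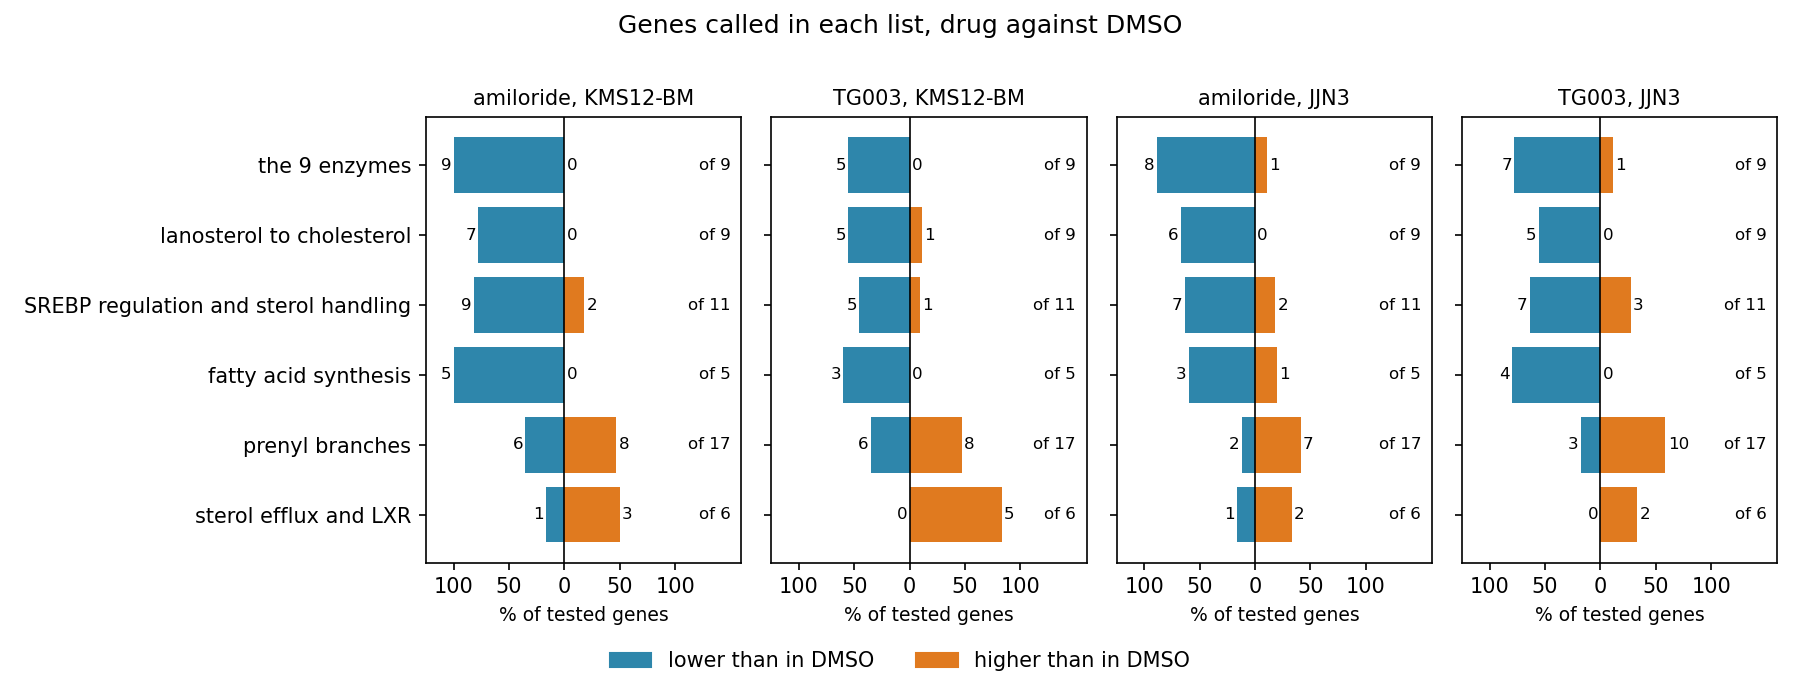
Percent of the tested genes of each list called lower (bars to the left of 0) and higher (bars to the right) than in DMSO, in 4 panels by line and drug. The 9 enzymes have 9 lower with amiloride and 5 with TG003 in KMS12-BM and 8 and 7 in JJN3, and the prenyl branches have more genes higher than lower in each panel. Over all genes, 35.2% and 31.7% were lower and 33.5% and 26.9% higher with amiloride and TG003 in KMS12-BM. In JJN3 23.9% and 32.1% were lower and 19.7% and 26.2% higher.

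MVK overlaps MMAB, a cobalamin adenosyltransferase gene on the opposite strand, and the promoter windows of the pair overlap. MMAB was lower with amiloride (-0.74 ± 0.16 in KMS12-BM and -0.75 ± 0.14 in JJN3), as MVK was, and higher with TG003 (0.42 ± 0.16 in KMS12-BM and 0.47 ± 0.13 in JJN3), where MVK was not called. Between the untreated lines MMAB was higher in KMS12-BM (1.51 ± 0.16). The library kit is strand-specific, but the strand setting of the counting is not given in the sources used here, so MVK reads in the overlap are uncertain. FDPS has processed pseudogenes, whose reads came to 0.0143 to 0.06398% of those of FDPS in the TG003 libraries and to 2.19 to 12.8% in the amiloride and DMSO libraries. With pseudogene reads summed into their parents, FDPS changed by 0.03 with TG003 in KMS12-BM and by -0.62 in JJN3, with the same calls. The IDI1 paralog IDI2 had 0 reads in all 18 libraries.

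The genes most like the 9 were ranked by Pearson's r, over the 18 libraries, with the mean of the 9 after each was centred within its line and scaled. The 9 did not share a single profile. With the mean of the other members, r was 0.153 for PMVK, 0.741 for MVK and 0.747 for HMGCS1. For the rest it ran from 0.844 for IDI1 to 0.954 for LSS. Among 9361 other genes with a mean of at least 5 CPM in both lines, the 10 with the highest r were TREX1 (0.988), FADS2 (0.986), MARVELD1 (0.985), CTBP1-DT (0.984), SLC48A1 (0.983), TMEM97, TSTD1 and ELOVL5 (0.982 each), and VSIR and RRM2 (0.979 each). The libraries share their lines, treatments and DMSO controls, so r describes the pattern and carries no test.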

How the data were processed

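Total RNA of 18 libraries was sequenced from strand-specific TruSeq libraries, per the labels' protocols. The authors deposited raw read counts per Ensembl gene, 1 file per library, which are not normalized. The submitters' processing notes name cutadapt 1.4, TopHat2 2.0.11, HTSeq 0.6.1p1, DESeq2 1.12.4 and hg19. Gene annotation, alignment options and counting strandedness were not given in the sources used here. HTSeq's summary lines stayed out of totals and tests. Reads not placed uniquely equalled 7.79 to 9.13% with TG003 and 13.3 to 17.4% in the other libraries. Reads in no gene equalled 6.42 to 8.17% with TG003 and 11.4 to 13.6% in the other libraries. Depth was 23707695 to 50570234 reads in genes per library, and counting error is largest for the lowest counts.

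Symbols, coordinates and transcript lengths came from GENCODE 44 lifted to GRCh37, which matched 55538 of 57905 identifiers; ACACA and PECAM1 were not matched. Some genes of the surrounding pathway are not reported here, and the list counts leave them out. Counts were filtered (filterByExpr, minimum count 10, total 15), TMM-scaled and tested with edgeR 4.0.16 (R 4.3.3) by the robust quasi-likelihood test, over the 9 libraries of a line for drug comparisons and over all 18 for line comparisons and interactions, with Benjamini-Hochberg adjustment over all genes tested and a threshold of 0.05. Standard errors were the log2 fold change over the square root of F, and 95% intervals used the total degrees of freedom. The script was tested on simulated counts. All 9 genes were named, and of each list up to 3 with the smallest adjusted p; other genes are named as examples seen in the results.

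Alternatives were DESeq2 1.42.0, limma 3.58.1 voom, other size factors, filters and samples, a block on library numbers, summed pseudogenes, and removal of a GC trend. The block used sets of consecutive library numbers from the labels. The deviations of libraries of one set from their group means correlated by 0.106 to 0.441 in KMS12-BM. In JJN3 they correlated by 0.319 to 0.337 between TG003 and DMSO and by -0.038 to 0.299 between amiloride and the other groups. The median was 0.268 over all 18 such pairs and -0.102 over 36 pairs of different sets, which ranged from -0.424 to 0.235. Libraries of one set thus tended to deviate together, least clearly for amiloride in JJN3. The GC value was first taken from the longest transcript and was changed to the canonical one after results were seen. That first version, the centred trend of coding genes and a fit of coding genes alone were added after seeing the data, and all are reported. The members, lists, motifs and windows were chosen with earlier results of these data known.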

Additional observations from a re-analysis of the deposited data

Results flagged for a closer look

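The response of 12 gene and drug pairs differed between the lines by the interaction test (log2 fold change in KMS12-BM minus that in JJN3, called over all genes). Of all genes, 21.6% were called lower and 21.6% higher for amiloride, and 6.80% lower and 7.13% higher for TG003. For amiloride the differences were -0.78 for MVK, -0.64 for PMVK, -1.31 for MVD, -0.49 for FDPS, -0.76 for FDFT1, -0.60 for SQLE and -1.52 for LSS, each lower in KMS12-BM, where the dose was 0.1 mM, against 0.4 mM in JJN3. For TG003, at 0.4 mM in both lines, they were 1.07 for HMGCS1, 0.80 for MVD, 0.54 for IDI1, 0.69 for FDPS and 0.40 for FDFT1, each higher in KMS12-BM. MVD, FDPS and FDFT1 stand in both sets, with opposite signs. The TG003 call of FDFT1 was lost with pseudogenes summed, with the GC trend over all genes removed and with only the compared groups in the fit. That of IDI1 was lost with only the compared groups in the fit. With 1 library left out, 2 to 5 of the genes were called higher for TG003. The lines also differed in serum. With the GC trend over all genes removed, the amiloride differences of LSS, MVD and MVK moved to -1.17, -0.77 and -0.375, and PMVK and FDPS were no longer called.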

How the results depend on the processing

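The count of genes called over the whole table stayed within 1.5 times under every alternative run, in all 8 comparisons. The GC trend fitted over all genes moved results most: it moved the median of all genes to 0.38 (TG003 in KMS12-BM), 0.41 (TG003 in JJN3), -0.36 (amiloride against TG003) and 0.17 (lines under DMSO), and the share of calls that were higher to 74.2, 76.8 and 26.5% in the first 3, from 45.9, 45.0 and 53.5%. Under it, and with GC of the longest transcript, the 9 genes had 2 and 1 lower and 3 and 4 higher with TG003 in KMS12-BM, 4 lower and 2 higher under either version with TG003 in JJN3, and 6 and 7 lower and 1 higher for amiloride against TG003; the second version also gave 1 higher with amiloride in KMS12-BM. PMVK turned to 0.20 and 0.23 with amiloride and to 0.19 and 0.21 with TG003 in KMS12-BM. For amiloride against TG003, PMVK turned to -0.12 and -0.13, IDI1 to -0.003 and -0.23, FDPS to -0.26 and -0.21, FDFT1 to -0.17 and -0.15, and SQLE to -0.46 and -0.46. With the centred trend of coding genes 1 gene was higher with TG003 in KMS12-BM (MVD), and PMVK turned to 0.14 with amiloride. The cause was not tested.

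For the TG003 interaction, the count lower was 1 (PMVK) with abundant genes removed, the replicate block, the compared groups alone, pseudogenes summed and all 3 GC versions, and the count higher was 3 with the compared groups alone; MVK turned to 0.011 with upper-quartile factors and 0.038 with coding genes alone. The share of its calls that were higher was 51.2%, and 37.1% with pseudogenes summed, 39.3% and 39.2% with the GC trend over all genes and with GC of the longest transcript, and 62.0% with coding genes alone. Leaving out 1 library gave 2 to 5 genes higher and 0 to 1 lower; PMVK spanned -0.21 to 0.005 (TG003 in KMS12-BM), and in the TG003 interaction SQLE spanned -0.001 to 0.27 and MVK -0.094 to 0.05. The replicate block made PMVK called in the TG003 interaction (-0.33, adjusted p = 0.0297) and SQLE in amiloride against TG003 (0.18, adjusted p = 0.0195), and changed no other call of the 9.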
